A study of Mus musculus with 28 samples.

Results

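Spleen T cells of mice given rapamycin-loaded polymersomes (rPS) were compared with those of mice that received no treatment (NT). All libraries whose labels name either condition were used, 5 rPS and 7 NT libraries, which are 12 of the 28 libraries of the series. The other libraries came from mice given empty polymersomes (PS, n = 4), free rapamycin under the skin (R, n = 6) or oral rapamycin (RO, n = 6). Bulk RNA sequencing was done on CD3-positive cells taken from spleen by magnetic sorting, and 1 table of expected counts per mouse was analysed, although the series text speaks of single cells. The mice of both groups were healthy males of the inbred strain C57BL/6J, 8 to 12 weeks old. The rPS mice had a subcutaneous injection in the scruff each day, 11 doses in all, each of 1 mg rapamycin and about 60 mg polymer per kg body weight. The NT mice had neither drug, polymer nor injection, and spleens were taken after 11 days. Drug, carrier and injection therefore differ together between the groups, and their shares cannot be told apart in this comparison.

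Rapamycin binds the small protein encoded by Fkbp1a, and the pair inhibits the kinase mTOR in the complex mTORC1. That complex links nutrient and antigen signals to ribosome production, protein synthesis and entry into the cell cycle, and T cells depend on it to divide and to become effector cells. Polymersomes are hollow vesicles of a block copolymer, here poly(ethylene glycol) joined to poly(propylene sulfide), which can carry a drug in their wall or core.

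The libraries differed in how many T cell transcripts they held, and this bears on every result. Total counts ran from 4286885 to 9008499 in rPS and from 5016232 to 15696529 in NT. Cd3e, which encodes the epsilon chain of CD3, stood at 238, 206, 122, 347 and 199 CPM (a gene's count scaled to a common library total) in rPS replicates 1, 2, 4, 5 and 7. In NT it stood at 401, 75.9 and 471 CPM in replicates 2, 5 and 6, and at 18.5, 34.6, 23.7 and 44.9 CPM in replicates 3, 4, 7 and 8. The last 4 lie under 60 CPM, and the main results are given with and without them. The lowest Cd3e value among the NT libraries kept is 75.9 CPM and the highest among those left out 44.9 CPM.

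Markers of macrophages, neutrophils and plasma cells moved with this split, while those of some other spleen cells did not. Lyz2, which macrophages and neutrophils express, ranged from 18.9 to 312 CPM in rPS, from 141 to 693 CPM in the 3 NT libraries kept and from 1865 to 3721 CPM in the 4 others. The summed level of 4 neutrophil markers was 2.85 to 24.6 CPM in rPS, against 10.4 to 189 CPM in the NT libraries kept and 324 to 1596 CPM in the others. For 3 plasma cell markers the ranges were 31.9 to 253 CPM in rPS, against 187 to 532 CPM and 676 to 953 CPM in these sets of NT libraries. The ranges for 2 natural killer cell markers were 13.5 to 23.6 CPM in rPS, against 38.4 to 61 CPM and 25.6 to 77.6 CPM. For 4 B cell markers they were 156 to 1701 CPM in rPS, against 1006 to 2327 CPM and 902.5 to 1700 CPM. In both cases the sets of NT libraries overlapped. The 3 red cell markers went the other way, at 1124 to 3059 CPM in the NT libraries kept and 571 to 1388 CPM in the others. In rPS they were at 89.7 to 2897 CPM. None of the markers was at 0 in all rPS libraries. In bulk samples, fewer cells of a type and less RNA per cell cannot be told apart.

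**Figure D1:**
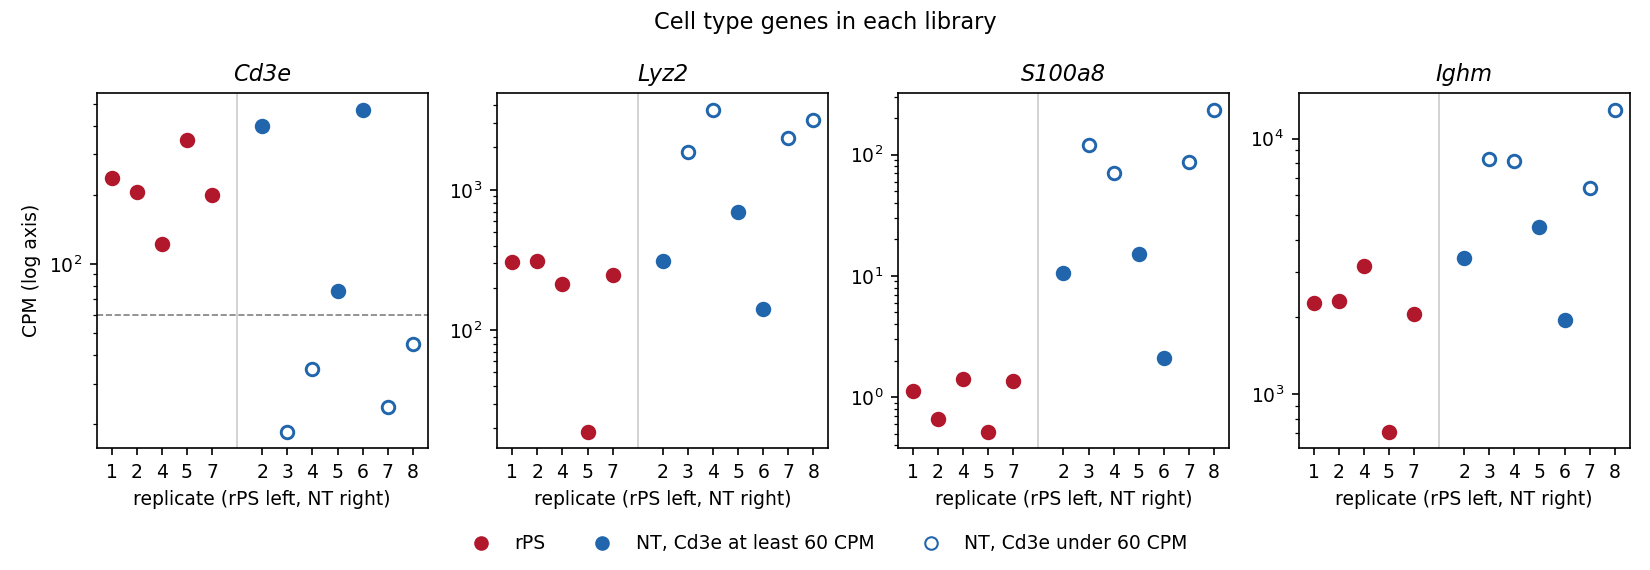
Level of 4 cell type genes in each library, in CPM on a log axis, with rPS replicates left and NT replicates right of the grey line. Filled points are libraries with Cd3e of at least 60 CPM (dashed line) and open points the 4 NT libraries below it. These 4 have Lyz2 between 1865 and 3721 CPM, above every rPS library, and rPS replicate 5 has the lowest Lyz2 at 18.9 CPM.

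The rPS libraries were not uniform either. Mitochondrial genes took 0.356% and 0.572% of the counts in rPS replicates 4 and 7, against 1.77% to 3.40% in replicates 1, 2 and 5. Immediate early genes summed to 11690, 5158 and 5693 CPM in rPS replicates 4, 5 and 7, and to 1779 and 1871 CPM in replicates 1 and 2. The NT libraries lay between 1986 and 3525 CPM. On the first 2 principal components, which held 49.1% and 17.1% of the variance, rPS replicate 4 stood farthest out on the second. Malat1, a nuclear long RNA, and mt-Rnr2, the large ribosomal RNA of mitochondria, had a value of 0 in each of the 7 NT libraries and were left out. In rPS they held 16560 to 25860 CPM and 1854 to 17740 CPM. Whether the NT tables were made with another annotation or filter is not known from the sources at hand, and such a difference would fall together with the groups and cannot be told apart from them. No other gene was listed at 0 in every NT library while above 1 CPM in every rPS library.

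With all 12 libraries, edgeR called 1123 of 15652 genes (7.17%) at an adjusted p under 0.05. Of these 411 were higher in rPS (2.63% of the genes tested) and 712 lower (4.55%). At an unadjusted p under 0.05 there were 4773 genes. All 5 rPS libraries lay below all 7 NT libraries for 317 genes (2.03%) and above them for 204 genes (1.3%). The count of calls rested heavily on single libraries. It was 1 without rPS replicate 7, with 3881 genes still at an unadjusted p under 0.05. It was 129, 181 and 571 when rPS replicate 5, 4 or 1 was left out. Leaving out NT replicate 8, 7, 3 or 4 gave 126, 134, 150 and 238. Without NT replicate 5 or 6 it was 2168 and 2188.

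With the 3 NT libraries kept, the same test on 5 against 3 libraries called 0 of 15930 genes by edgeR, with a lowest adjusted p of 0.105. At an unadjusted p under 0.05 it gave 1333 genes (8.37%), 538 of them higher in rPS (3.38%) and 795 lower (4.99%). DESeq2 called 104 genes on these libraries and limma voom 1991. A further edgeR fit used the same 8 libraries but took the spread between mice from all groups of the series, without the libraries under 60 CPM and without RO replicate 7, which lists many genes at 0. It called 557 of 17000 genes (3.28%), 152 higher (0.894%) and 405 lower (2.38%). This fit is named the pooled-spread fit here. It was not the main test, because the NT libraries varied more than the other groups, so a shared spread may not be theirs. No gene that it called passed in the plain edgeR fit on 8 libraries. There the adjusted p was 0.344 for Top2a and 0.135 for Oas3, against 0.00192 and 4.55e-05 in the pooled-spread fit. Both the pooled-spread fit and the fit on 12 libraries called 362 genes, 32.2% of the 1123 and 65% of the 557. Of these 102 were higher and 260 lower, although the fits share 8 libraries. The genes named here for the largest changes come from these 362.

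Genes of chromosome segregation were lower in rPS. Of 30 genes of the mitosis list, 27 fell and none rose in the fit on 12 libraries, where 4.55% of all genes fell. Their median log2 fold change was -1.97, against -0.01 over all genes tested. In 22 of the 30, every rPS library lay below every NT library, against 2.03% of all genes. The list summed to 308, 252, 381, 150 and 228 CPM in rPS replicates 1, 2, 4, 5 and 7, and in NT to between 458 CPM in replicate 6 and 1291 CPM in replicate 4. With the 3 NT libraries kept the median was -1.53 and all 30 fold changes were negative. The pooled-spread fit called 22 genes lower, against 2.38% of all genes. Germinal centre and plasma cell genes, given below, were lower in the same libraries, and their part in the mitosis result was not tested. With the mean level of the monocyte and macrophage list as a covariate, 3 of the 30 genes were called and the median was -1.36. Without rPS replicate 7 edgeR called 0 of them, with a median of -1.94 and 29 genes at an unadjusted p under 0.05.

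Top2a, the topoisomerase that untangles sister chromatids, stood at 33.5, 26.3, 24.3, 11.7 and 14.2 CPM in rPS, against a lowest value of 55 CPM, a median of 117 CPM and a highest of 181 CPM in NT. The groups did not overlap, and the NT library nearest to rPS was replicate 6, the one with the most Cd3e. The log2 fold change was -2.52 ± 0.35 (SE, edgeR, adjusted p = 0.00978), and -1.93 ± 0.34 with the 3 NT libraries kept (adjusted p = 0.00192 in the pooled-spread fit). Cdk1, the kinase that drives cells into mitosis, was at 1.5, 0.777, 2.8, 0.518 and 1.75 CPM in rPS and between 4.33 and 11.8 CPM in NT. Its log2 fold change was -2.50 ± 0.44 (edgeR, adjusted p = 0.0169), and -1.94 ± 0.51 with 3 NT libraries.

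Bub1, a kinase of the spindle checkpoint, averaged 0.918 ± 0.639 CPM in rPS and 7.21 ± 2.73 CPM in NT (SD, n = 5 and 7). Kif20a, a kinesin of cytokinesis, averaged 3.53 ± 1.29 CPM in rPS and 16.5 ± 6.14 CPM in NT, and Prc1, which bundles microtubules between the separating chromosomes, 9.8 ± 1.22 CPM and 24.9 ± 5.81 CPM. All 3 fell, with log2 fold changes of -3.02, -2.27 and -1.38, and none of them overlapped between the groups. Against 3 NT libraries these were -2.42, -1.62 and -1.03. Ccna2, cyclin A2, fell by 2.39 on the log2 scale, and Stmn1, which takes microtubules apart, by 1.19. Melk, a kinase found in dividing cells, fell by 3.02 and is among the 12 largest falls of the 362 genes.

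The promoters of Top2a and Cdk1 are shown as examples. Mitotic genes are known to share 2 short elements, the cell cycle homology region (CHR) and the CCAAT box. The lines give the 160 bases before the transcription start on the coding strand, from RefSeq on GRCm38.p6, with CHR (TTTGAA or TTCGAA) and CCAAT on either strand in capitals. The Top2a window is chr11:99024190-99024349 and that of Cdk1 chr10:69352913-69353072, both on the minus strand.
Top2a: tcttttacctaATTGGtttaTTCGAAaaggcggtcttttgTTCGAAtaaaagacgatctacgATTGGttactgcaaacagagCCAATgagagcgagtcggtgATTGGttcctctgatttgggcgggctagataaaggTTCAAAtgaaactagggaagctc
Cdk1: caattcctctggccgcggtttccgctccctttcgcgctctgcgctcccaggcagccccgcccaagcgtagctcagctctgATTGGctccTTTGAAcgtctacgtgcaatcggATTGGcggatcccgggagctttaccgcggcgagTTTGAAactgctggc
In the window from 250 bases before to 50 after the start, 21 of the 25 mitosis genes with a promoter in the table held a CHR, against 19.4% of 27025 promoters. A CCAAT box was in 22 of the 25, against 37.9%, and both were in 20, against 7.7%. Bub1, not printed, held 2 CCAAT boxes and no CHR in the 250 bases before its start. These are matches of letters, not measured sites.

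Genes of DNA replication and repair were lower as well, though fewer of each list passed. For comparison, 4.55% of all genes fell in the fit on 12 libraries and 2.38% in the pooled-spread fit. Of 31 genes for S phase, 6 fell and none rose (median -0.56, and -0.38 with 3 NT libraries, where the pooled-spread fit called 6 lower). Pclaf, a partner of the replication clamp PCNA, had the smallest adjusted p of all genes in the fit on 12 libraries. It stood at 3.55, 4.22, 2.8, 1.94 and 2.53 CPM in rPS, against 12.7, 21.5 and 27.7 CPM as the lowest, median and highest values in NT. The groups did not overlap, and the log2 fold change was -2.87 ± 0.26 (edgeR, adjusted p = 0.000652) and -2.62 ± 0.33 with 3 NT libraries (adjusted p = 5.23e-06 in the pooled-spread fit). In the plain fit on 8 libraries Pclaf and Ighg2c shared the lowest adjusted p, 0.105 by edgeR.

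Uhrf1, which reads half-methylated DNA behind the replication fork, averaged 13.2 ± 3.42 CPM in rPS and 44.1 ± 14.5 CPM in NT (SD, n = 5 and 7), and Rrm2, a subunit of ribonucleotide reductase, 8.68 ± 4.44 CPM and 31.3 ± 10.4 CPM. Both fell and neither overlapped between the groups. Of 22 genes of homologous recombination and DNA damage 9 fell, against 4.55% of all genes. Their median was -0.98, and -0.53 with 3 NT libraries, where the pooled-spread fit called 5 lower, against 2.38% of all genes. Among the 9 were Brca1, Brip1 and Fancd2, which act in the repair of broken or crosslinked DNA. They fell by 1.13, 1.84 and 1.5 on the log2 scale. Without rPS replicate 7, edgeR called 1 gene of the S phase list, with 15 at an unadjusted p under 0.05, and 0 of the repair list, with 12 lower at that level. With the monocyte and macrophage covariate the S phase list had 2 calls and a median of -0.35, and the repair list 0 calls by edgeR, with 10 at an unadjusted p under 0.05 and a median of -0.49. The repair median of -0.53 with 3 NT libraries was -0.32 when NT replicate 5 was left out. The counts moved with other single libraries too. For the S phase list they were 2 or 3 without NT replicates 3, 7 or 8 or rPS replicates 4 or 5, and 10 without NT replicate 6, and for the repair list 3 to 6 without NT replicates 3, 4, 7 or 8 or rPS replicates 1, 4 or 5.

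Histone genes expressed in S phase fell too. Of 51 genes tested, 22 fell and none rose, where 4.55% of all genes fell. The median log2 fold change was -1.45 in both fits, and the pooled-spread fit called 20 lower, against 2.38% of all genes. The median with 3 NT libraries rested on NT replicate 2, without which it was -0.85, with 11 genes at an unadjusted p under 0.05, against 29 with it. With the monocyte and macrophage covariate edgeR called 1 of the 51 on 12 libraries, with a median of -1.33. The genes of this family are near-identical copies, so how reads were shared among them is uncertain. Hist1h2bk, an H2B gene, was at 0.561, 0.777, 0.467, 0.777 and 0.585 CPM in rPS. In NT it was at 2.45 CPM in replicate 5 and at 5.52 to 18.7 CPM in the other 6 libraries. The groups did not overlap, and the log2 fold change was -4.08 ± 0.55 (edgeR, adjusted p = 0.00978). A count of 3 is worth between 0.191 and 0.700 CPM depending on the library, so the rPS values rest on few counts.

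Hist1h2bb, Hist1h2bm and Hist1h2bj also stand among the 12 largest falls, at -3.16, -3.50 and -3.17, but NT replicate 5 overlapped rPS in all 3. For Hist1h2bm that library held 1.09 CPM, against 0.561 to 1.63 CPM in rPS and 7.14 to 27 CPM in the remaining NT libraries. In 5 of the 51 histone genes all rPS libraries lay below all NT libraries, against 2.03% of all genes. Across the list, edgeR called 3 genes without rPS replicate 5, 13 without rPS replicate 1 or 4, and 9, 8, 7 and 5 when NT replicate 3, 4, 7 or 8 was left out. Without rPS replicate 7 it called 0, with 34 at an unadjusted p under 0.05.

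**Figure D2:**
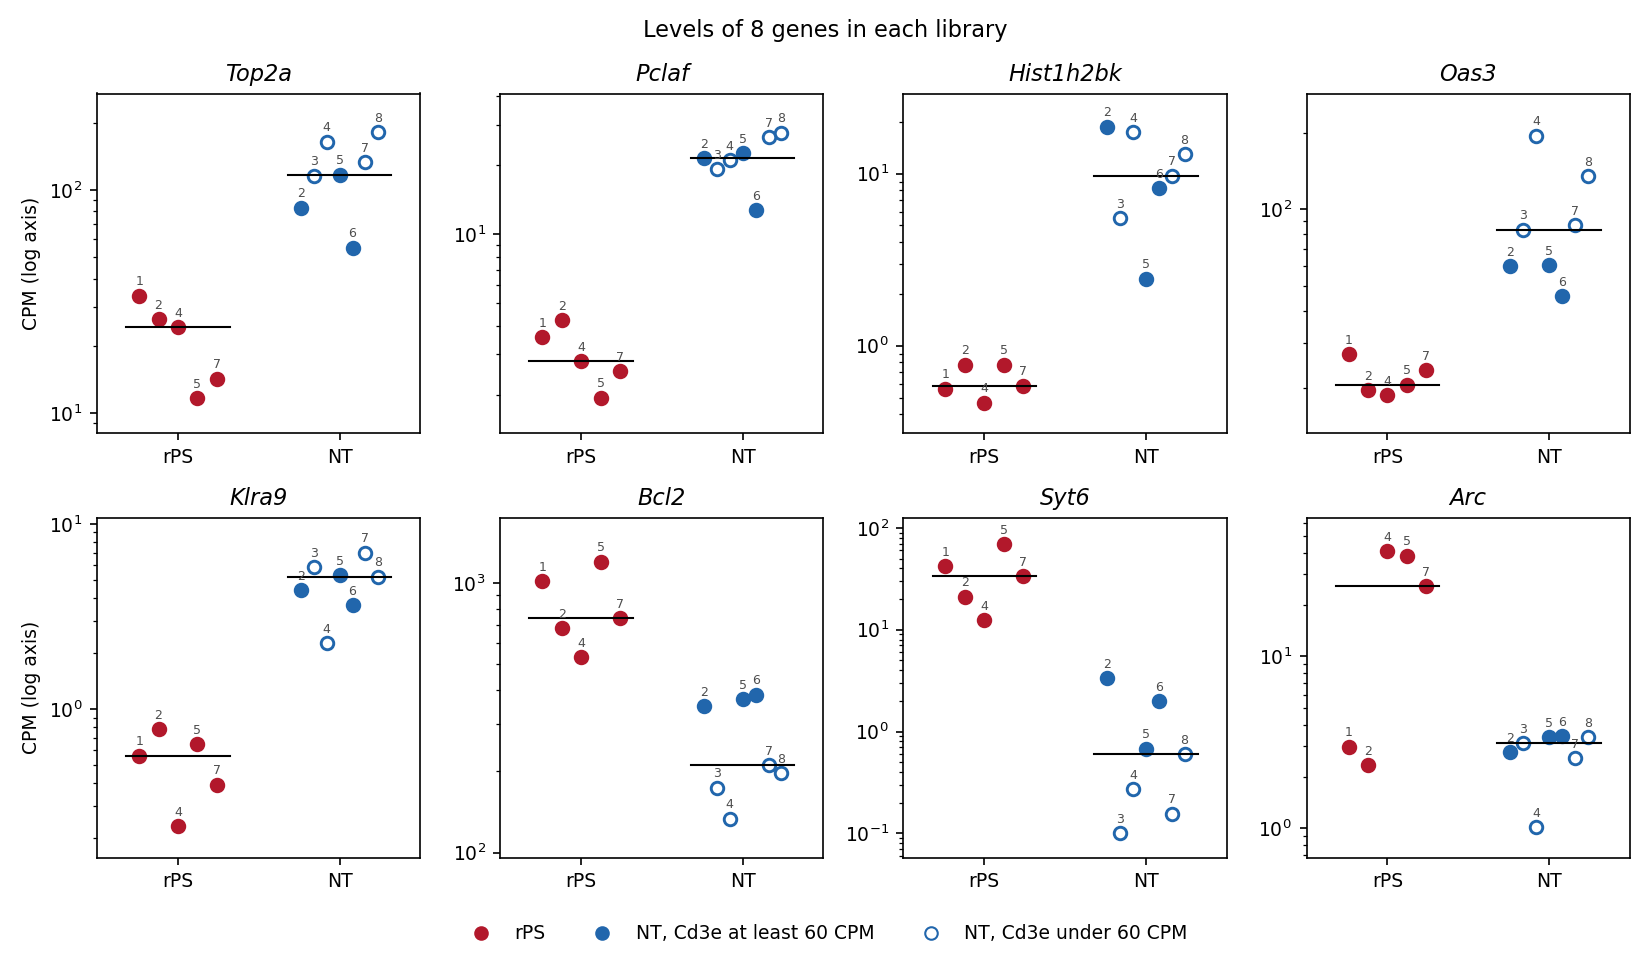
Level of 8 genes in each library, in CPM on a log axis, with rPS left and NT right. Numbers are replicates, bars are group medians, open points are NT libraries with Cd3e under 60 CPM, and values under 0.1 CPM are drawn at 0.1. All groups are apart except for Arc, where rPS replicates 1 and 2 lie among the NT libraries.

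**Figure D3:**
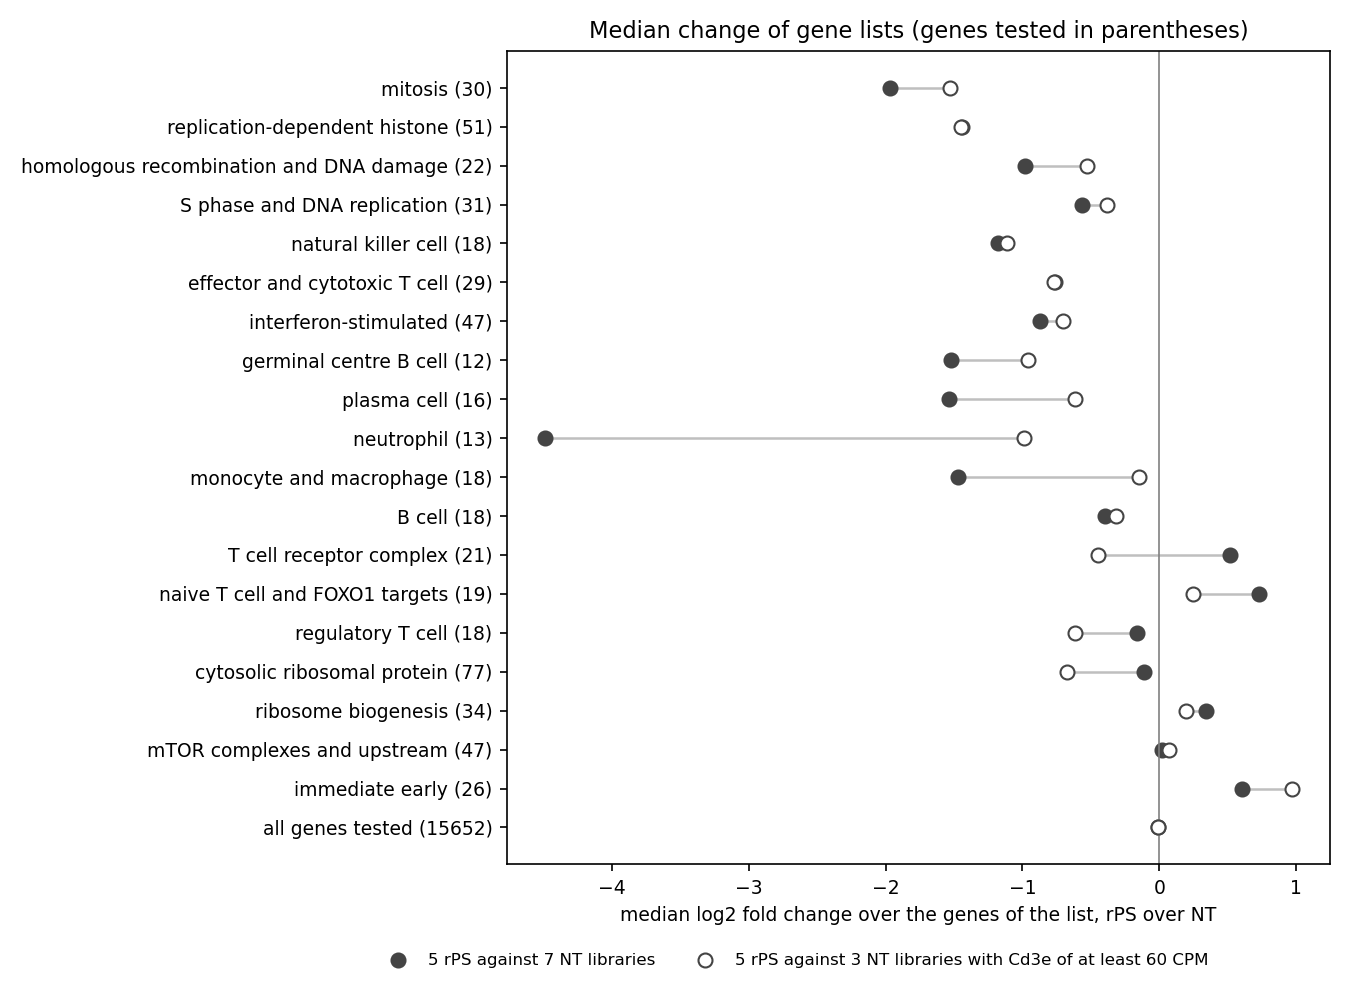
Median log2 fold change, rPS over NT, for 19 gene lists and for all genes tested, with the number of genes tested in the fit on 12 libraries in parentheses. Filled points come from 7 NT libraries and open points from the 3 with Cd3e of at least 60 CPM. The histone median is -1.45 in both, while the neutrophil median is -4.49 and -0.99.

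Interferon-stimulated genes were lower in rPS. These genes encode antiviral proteins and are switched on by interferon through a complex that holds the factor IRF9. Of 47 in the list, 24 fell and none rose, where 4.55% of all genes fell, and the median log2 fold change was -0.87. In 13 of them every rPS library lay below every NT library, against 2.03% of all genes. Summed over the list, rPS replicates 1, 2, 4, 5 and 7 held 2708, 2395, 1643, 2842 and 2079 CPM. The NT libraries held 3324 CPM at the lowest, 3762 CPM at the median and 4309 CPM at the highest, so that every rPS library lay below every NT library. With the 3 NT libraries kept the median was -0.70, with all 46 fold changes negative. The pooled-spread fit called 18 lower, against 2.38% of all genes.

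Oas3, which makes the messenger that activates the nuclease RNase L, stood at 27.1, 19.5, 18.7, 20.6 and 23.4 CPM in rPS. In NT it ran from 45.7 CPM in replicate 6 through a median of 83.2 CPM to 195 CPM in replicate 4. Its log2 fold change was -2.20 ± 0.37 (edgeR, adjusted p = 0.0163), and -1.34 ± 0.18 with 3 NT libraries (adjusted p = 4.55e-05 in the pooled-spread fit). The 4 NT libraries with the least Cd3e and the most Lyz2 held the 4 highest Oas3 levels, and the part of their other cells in this fall was not tested. Irgm1, a GTPase of defence against intracellular microbes, fell by about the same amount in either fit. It averaged 49.2 ± 8.6 CPM in rPS and 88 ± 10.8 CPM in NT (SD, n = 5 and 7), a log2 fold change of -0.88 ± 0.15, and of -0.95 ± 0.19 with 3 NT libraries.

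Irf9 itself averaged 84.6 ± 11.5 CPM in rPS and 128 ± 14.7 CPM in NT. It fell without overlap, by 0.64 on the log2 scale. Xaf1, a promoter of cell death, fell by 1.36, Ifit3 by 1.42, Rtp4 by 1.80 and Oasl2 by 3.22. For Oasl2 the 3 NT libraries kept lay at 25.9, 43.9 and 13.6 CPM and the 4 others between 71.7 and 153 CPM, against 5.31 to 11.1 CPM in rPS. Ifitm6, of the interferon-induced transmembrane family, fell by 4.64, one of the 12 largest falls, and by 2.29 with 3 NT libraries.

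The promoters of Ifit3 and Irgm1 are printed because interferon-stimulated genes are known to carry the interferon-stimulated response element, searched here as GAAA, any 2 bases and GAAA again on either strand and set in capitals. The Ifit3 window is chr19:34583369-34583528 on the plus strand and that of Irgm1 chr11:48871421-48871580 on the minus strand, again the 160 bases before the start from RefSeq on GRCm38.p6.
Ifit3: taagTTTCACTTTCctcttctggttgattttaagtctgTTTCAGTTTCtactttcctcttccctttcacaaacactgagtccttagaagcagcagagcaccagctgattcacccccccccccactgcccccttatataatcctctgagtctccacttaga
Irgm1: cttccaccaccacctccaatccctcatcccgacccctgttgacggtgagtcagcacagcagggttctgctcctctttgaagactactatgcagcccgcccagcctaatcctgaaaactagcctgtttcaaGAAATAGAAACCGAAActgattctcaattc
The element was in 22 of the 36 list genes with a promoter in the table, against 3.49% of 27025 promoters. In Irgm1 its 2 matches overlap, and Oasl2, not printed, held 0 in the 250 bases before its start. The CHR letters were in 15 of the same 36 promoters (41.7%), against 19.4% of all promoters, so they are not particular to the mitosis list.

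The interferon calls moved with single libraries. They were 6 without rPS replicate 4 or 5, and 8, 9, 7 and 6 when NT replicate 3, 4, 7 or 8 was left out. Without rPS replicate 7 edgeR called 0, with 33 genes at an unadjusted p under 0.05 and a median of -0.89. With the monocyte and macrophage covariate it called 0, and the median was -0.68. In the MHC class I list, which interferon also induces, 2 of 19 fell, against 4.55% of all genes, with a median of -0.10. The median was -0.22 with 3 NT libraries, 16 of the 19 were negative, and the pooled-spread fit called 3 lower, against 2.38%. Of these 2, B2m, the light chain of class I molecules, averaged 257 ± 125 CPM in rPS and 790 ± 320 CPM in NT, with NT replicate 5 at 225 CPM inside the rPS range.

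Genes of cytotoxic lymphocytes were lower in rPS. Over all genes, 4.55% fell in the fit on 12 libraries and 2.38% in the pooled-spread fit. In the natural killer cell list 8 of 18 fell and none rose (median -1.18, and -1.11 with 3 NT libraries, 7 lower in the pooled-spread fit). In the list of effector and cytotoxic T cells 10 of 29 fell and none rose (median -0.76, and -0.77 with 3 NT libraries, 10 lower in the pooled-spread fit). Gzma stands in both lists, and Ncr1, which most T cells lack, fell too, so natural killer cells and T cells cannot be told apart here.

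Klra9, an inhibitory receptor of the Ly49 family, was at 0.561, 0.777, 0.233, 0.647 and 0.39 CPM in rPS and between 2.27 and 6.99 CPM in NT, a log2 fold change of -3.12 ± 0.37 (edgeR, adjusted p = 0.00817). Its rPS values lie near the level of 3 counts. Gzmb, a protease of cytotoxic granules, was at 1.5, 2.55, 2.1, 2.07 and 1.75 CPM in rPS and at 6.41, 9.63 and 20.5 CPM as the lowest, median and highest values in NT. It changed by -2.54 ± 0.33 (adjusted p = 0.00978), and by -2.23 ± 0.33 with 3 NT libraries. Neither gene overlapped between the groups. Gzma, a second granule protease, averaged 7.6 ± 4.94 CPM in rPS and 46.5 ± 20.6 CPM in NT, and Klrg1, a receptor of terminal effector cells, 1.12 ± 0.693 CPM and 6.77 ± 2.41 CPM (SD, n = 5 and 7). Ncr1, an activating receptor of natural killer cells, fell by 2.37. Without rPS replicate 7 edgeR called 0 genes in either list, with 12 and 17 lower at an unadjusted p under 0.05. The natural killer count was 2 or 3 without NT replicates 3, 7 or 8 or rPS replicates 4 or 5, and 5 without rPS replicate 1. The cytotoxic count was 5 without rPS replicate 4 or 5, and 6 without NT replicate 8.

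Genes of antibody-producing cells were lower, by amounts that depended on the NT libraries. Their counts stand against 4.55% of all genes in the fit on 12 libraries and 2.38% in the pooled-spread fit. In the plasma cell list 6 of 16 fell (median -1.54), but with 3 NT libraries the median was -0.61 and the pooled-spread fit called 0, by edgeR. In the list of germinal centre B cells 6 of 12 fell (median -1.52, and -0.96 with 3 NT libraries, 4 lower in the pooled-spread fit). Single libraries carried these counts. For the plasma cell list edgeR called 0 without NT replicate 3, 4, 7 or 8 or rPS replicate 5 or 7, 1 without rPS replicate 4 and 2 without rPS replicate 1, with 11 to 13 genes at an unadjusted p under 0.05 in each, and 11 without NT replicate 6. For the germinal centre list it called 0 without rPS replicate 7, 1 without NT replicate 7 or 8 or rPS replicate 5 and 3 without NT replicate 3 or 4. Some class-switched heavy chains showed large falls. Ighg2c, the constant region of IgG2c, was at 12.5, 5.55, 6.3, 3.88 and 5.85 CPM in rPS, against 33.3, 210 and 764 CPM as the lowest, median and highest values in NT. The groups were apart, and the log2 fold change was -5.39 ± 0.78 (edgeR, adjusted p = 0.0114) and -3.63 ± 0.46 with 3 NT libraries.

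Ighg2b and Igha, the constant regions of IgG2b and IgA, fell by 4.36 and 3.45, and did not overlap either. Ighm, the constant region of IgM, averaged 2100 ± 883 CPM in rPS and 6532 ± 3709 CPM in NT, with overlap, and its fall of 1.69 passed narrowly (adjusted p = 0.0493), while it was -0.61 ± 0.42 with 3 NT libraries (adjusted p = 0.274 in the pooled-spread fit). Immunoglobulin genes made up 11.2% of the genes that fell, against 1.08% of all genes tested. Among germinal centre genes, S1pr2, a receptor that holds B cells in the germinal centre, averaged 7.51 ± 1.36 CPM in rPS and 18.3 ± 5.92 CPM in NT. Mybl1 and Nuggc fell by 2.25 and 3.06. Of 18 general B cell genes edgeR called 0, with a median of -0.40 and 3 at an unadjusted p under 0.05, while DESeq2 called 2 lower and limma voom 4. Against 3 NT libraries the median was -0.31, 17 of the 18 were negative, and the pooled-spread fit called 0, by edgeR. The summed B cell list ran from 737 CPM in rPS replicate 5 to 6616 CPM in rPS replicate 4, which covers all NT libraries but replicate 5 at 7803 CPM.

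Myeloid genes fell mainly against the T-cell-poor NT libraries. Here too, 4.55% of all genes fell in the fit on 12 libraries and 2.38% in the pooled-spread fit. Of 13 neutrophil genes 9 fell, with a median of -4.49, but the median was -0.99 with 3 NT libraries and the pooled-spread fit called 1 gene. Without NT replicate 3, 4, 7 or 8 or rPS replicate 1 or 4 edgeR called 1, without rPS replicate 2 it called 4, and without rPS replicate 5 or 7 it called 0, with all 13 at an unadjusted p under 0.05. S100a8, an abundant neutrophil protein and the largest named fall at -6.37 ± 1.16, averaged 1.01 ± 0.403 CPM in rPS and 77.4 ± 82.6 CPM in NT. In the 3 NT libraries kept it was at 10.6, 15.1 and 2.1 CPM, and in rPS at most 1.4 CPM, so the groups did not overlap. With these 3 its log2 fold change was still -3.17 ± 0.60 (edgeR, adjusted p = 0.394, and 0.00789 in the pooled-spread fit). Of 18 monocyte and macrophage genes 3 fell (median -1.47, and -0.15 with 3 NT libraries), among them Lyz2, which averaged 219 ± 119 CPM in rPS and 1744 ± 1412 CPM in NT. With 3 NT libraries the log2 fold change of Lyz2 was -0.76 ± 0.70 (adjusted p = 0.419 in the pooled-spread fit). For the monocyte and macrophage list edgeR called 0 without NT replicate 3, 7 or 8 or rPS replicate 4, 5 or 7, with 9 or 10 at an unadjusted p under 0.05, 1 without NT replicate 4, and 6 and 8 without NT replicate 5 or 6.

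Cd3e averaged 222 ± 81.7 CPM in rPS and 153 ± 195 CPM in NT, and its log2 fold change was 0.50 ± 0.78 with 12 libraries (edgeR, adjusted p = 0.698). With 8 libraries it was -0.55 ± 0.52, but those NT libraries were kept for their Cd3e level, which favours a lower fold change for this gene and those that vary with it, so that value is only a description. In the T cell receptor list edgeR called 0 of 21 genes in either fit, and 0 had an unadjusted p under 0.05, with a median of 0.52 with 7 NT libraries and -0.45 with 3. DESeq2 also called 0 in both, but limma voom with sample weights called all 21 higher with 7 NT libraries (median 2.34) and 7 lower with 3 (median -0.91). Foxp3, the factor of regulatory T cells, had a log2 fold change of 0.31 ± 0.48 with 12 libraries and -0.47 ± 0.40 with 8, and edgeR called 0 of 18 regulatory T cell genes with 12 libraries, 4 being lower at an unadjusted p under 0.05, where DESeq2 called 3 lower and limma voom 4 lower and 4 higher. The regulatory T cell median with 3 NT libraries was -0.62, 17 of the 18 were negative, 2 were lower at an unadjusted p under 0.05, the pooled-spread fit called 1 lower and limma voom 11. The log2 ratio of Cd4 to Cd8a, the coreceptors of the main lineages, was -1.14 ± 0.94 in rPS and -0.66 ± 0.27 in NT (SD, n = 5 and 7). The difference of -0.48 had an exact two-sided permutation p of 0.263, and with 3 NT libraries it was -0.34 with p = 0.643 by the same exact test. The rPS libraries themselves ran from -2.42 in replicate 1 to -0.02 in replicate 4.

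Regulators of cell survival changed in both directions. Of 14 genes of the BCL2 family 2 rose and 3 fell, against 2.63% and 4.55% of all genes. The counts were 1 and 1 without NT replicate 3, 7 or 8 or rPS replicate 4 or 5, 2 and 2 without NT replicate 4, and 0 and 0 by edgeR without rPS replicate 7, with 3 and 5 at an unadjusted p under 0.05. Bcl2, which blocks the mitochondrial path of cell death, stood at 1015, 682, 530, 1203 and 741 CPM in rPS, against 134, 211 and 385 CPM as the lowest, median and highest values in NT. Every rPS library lay above every NT library, as it did for 1.3% of all genes. The log2 fold change was 1.66 ± 0.28 (edgeR, adjusted p = 0.0163), and 1.18 ± 0.28 with 3 NT libraries (adjusted p = 0.0031 in the pooled-spread fit).

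Bbc3, which encodes the death-promoting protein PUMA, also lay above all NT libraries, at 34.4, 29.4, 72.6, 72.8 and 67.8 CPM in rPS and 12.4 to 28.8 CPM in NT. Its log2 fold change was 1.57 ± 0.32. Bcl2a1b and Bcl2a1d, near-identical survival genes whose reads are hard to tell apart, fell by 1.61 and 1.81. Of the cytokine and STAT5 list 2 of 19 rose, against 2.63% of all genes. These were Bcl2 and Socs1, a brake on cytokine receptors. Socs1 was at 31.1, 18.5, 103, 112 and 84.2 CPM in rPS and reached 36.5 CPM in NT, so rPS replicates 1 and 2 lay inside the NT range.

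The genes that rose most included several best known from other tissues. Syt6, a synaptotagmin, of the family that times vesicle fusion, was at 42.1, 21.1, 12.4, 69.4 and 33.7 CPM in rPS. In NT it was at 3.35 and 1.98 CPM in replicates 2 and 6 and under 0.7 CPM in the other 5. The log2 fold change was 5.09 ± 0.76 (edgeR, adjusted p = 0.0115), and 4.11 ± 0.70 with 3 NT libraries (adjusted p = 0.00144 in the pooled-spread fit). Prss12, a secreted serine protease best known from neurons, was at 35, 25.1, 22.5, 39.3 and 26.7 CPM in rPS, against 0.757 to 13.4 CPM in NT. Trnp1, a nuclear protein of cortical progenitors, and Auts2, a transcriptional regulator of neurons, likewise lay above all NT libraries, with log2 fold changes of 2.93 ± 0.73 and 2.27 ± 0.63.

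In all 4 of these genes the NT libraries with the most Cd3e, replicates 2 and 6, stood above the 4 T-cell-poor ones. With 3 NT libraries Prss12 changed by 1.49 ± 0.30, Trnp1 by 1.87 ± 0.47 and Auts2 by 1.32 ± 0.40. Neb, the giant filament protein of skeletal muscle, was at 76.3, 46.5, 13.3, 197 and 56.9 CPM in rPS and 8.78 to 20.5 CPM in NT, with rPS replicate 4 inside the NT range. Drc1, a part of motile cilia, Nkd2, an inhibitor of Wnt signalling, and Hcn3, an ion channel, rose by 2.80, 2.7 and 2.05, each with overlap between the groups. Long noncoding RNAs made up 21.7% of the genes that rose, 1.83% of those that fell and 15% of all genes tested.

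Another set was high in only some rPS libraries. Arc, an immediate early gene of neurons and dendritic cells, stood at 2.99, 2.33, 40.8, 38.5 and 25.5 CPM in rPS and between 1.02 and 3.44 CPM in NT. Replicates 1 and 2 lay within the NT range and replicates 4, 5 and 7 far above it, with a log2 fold change of 2.97 ± 0.64 (edgeR, adjusted p = 0.0304). Slc10a1, the bile acid transporter of liver, was high in the same 3 libraries, at 3.55, 2, 24.5, 31.3 and 28.7 CPM in rPS and 0.781 to 5.43 CPM in NT. Olfml3, a secreted matrix protein, rose by 2.73, with 18.3, 9.1, 50.2, 57.5 and 45 CPM in rPS.

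Of 26 immediate early genes 3 rose, against 2.63% of all genes, with a median of 0.61. With 3 NT libraries the median was 0.97 and the pooled-spread fit called 0, by edgeR. In the plain fit on those libraries 6 had an unadjusted p under 0.05. Fosb, a subunit of the AP-1 factor, was at 8.23, 5.77, 883, 130 and 288 CPM in rPS, and Jun, its partner, at 7.86, 17.5, 487, 298 and 245 CPM. In NT they reached 35.5 and 56.6 CPM. Every PS library was high too, with Fosb at 227 to 405 CPM and Jun at 218 to 367 CPM. In R they ran up to 288.5 and 351 CPM and in RO up to 197 and 208 CPM, from lows inside the NT range. High values of these genes were thus not particular to rPS, whereas Arc was at 3.54 to 5.14 CPM in PS. Between rPS and NT, Fosb passed (edgeR, adjusted p = 0.0472) and Jun did not (adjusted p = 0.0556). Ppp1r15a, which restarts translation after stress, and Dusp2, a phosphatase of MAP kinases, rose by 2.22 and 2.17 with the same 3 libraries high. Hexim1, an inhibitor of the elongation factor P-TEFb, was likewise at 83.4, 91.3, 470, 306 and 290 CPM in rPS and at most 126 CPM in NT. In PS, Ppp1r15a and Dusp2 were at 96.4 to 169 and 260 to 410 CPM, and Hexim1 at 80.8 to 91.8 CPM. Mitochondrial counts were low in replicates 4 and 7 but not in replicate 5, and their part in these values was not tested. Without rPS replicate 4, 5 or 7, edgeR called 0 of the 26 genes, and without replicate 1 or 2 it called 6. Leaving out any of NT replicates 3, 4, 7 and 8 also gave 0 by edgeR, and without NT replicate 2 it gave 2. At an unadjusted p under 0.05, 11 of the 26 differed without rPS replicate 7. The median of 0.97 with 3 NT libraries was 0.48 without rPS replicate 4.

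**Figure D4:**
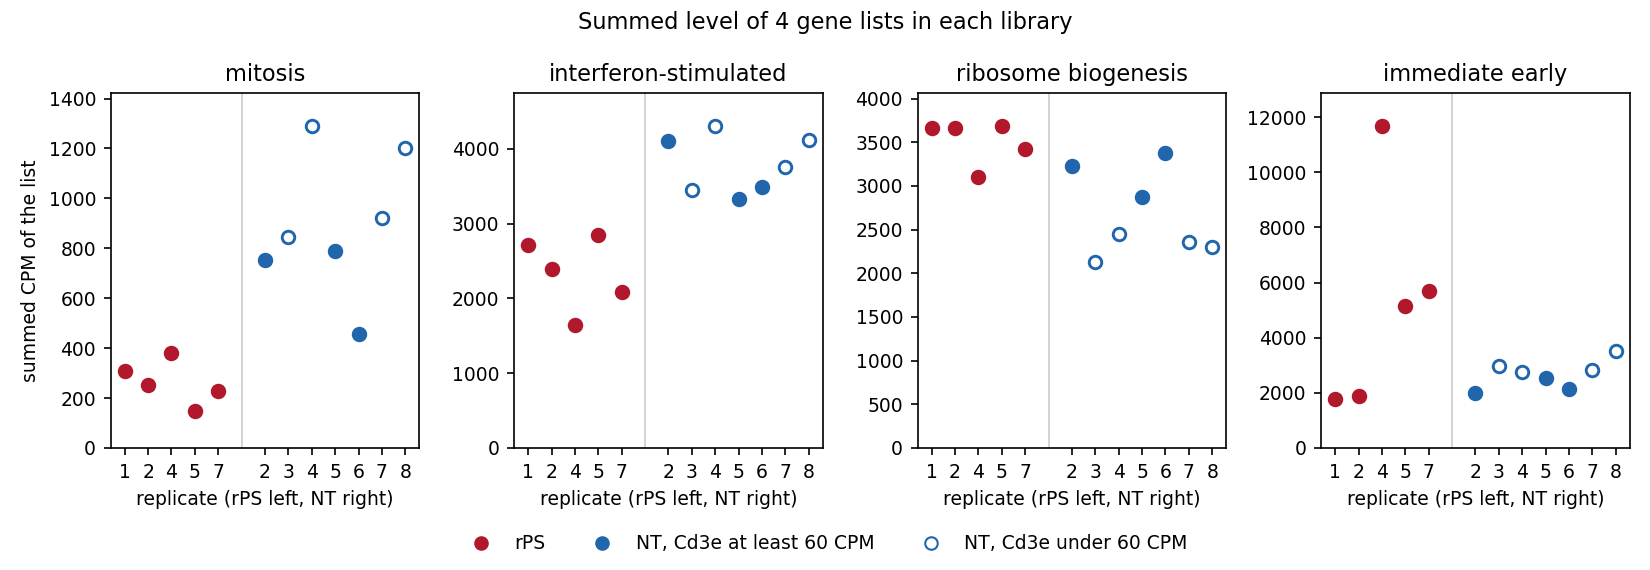
Summed CPM of 4 gene lists in each library, on linear axes from 0, with rPS left and NT right of the grey line and open points for NT libraries with Cd3e under 60 CPM. The mitosis and interferon lists are lower in every rPS library than in every NT library. Immediate early genes are high in rPS replicates 4, 5 and 7 and in replicates 1 and 2, at 1779 and 1871 CPM, below every NT library.

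For the drug's own pathway, Mtor had a log2 fold change of 0.24 ± 0.13 (edgeR, adjusted p = 0.228), at 144 ± 21.9 CPM in rPS and 119 ± 7.61 CPM in NT. Fkbp1a, the rapamycin-binding protein, averaged 81 ± 11.5 CPM in rPS and 70.6 ± 15 CPM in NT, a log2 fold change of 0.15 ± 0.18 (adjusted p = 0.598). Of 47 genes of the mTOR complexes and their upstream signals 3 rose and 1 fell, against 2.63% and 4.55% of all genes, with a median of 0.02, and 0.07 with 3 NT libraries. The 3 were Pik3cd, the lymphocyte PI3 kinase, Ddit4, a stress-induced inhibitor of mTORC1, and Rragb, a GTPase that reports amino acids, at 0.64, 0.88 and 0.92. Pik3cd lay above every NT library. Summed, the list of 47 took 4475 to 5159 CPM in rPS and 4026 to 4276 CPM in NT, so the groups did not overlap. Pik3cd, at 863 to 1214 CPM in rPS and 485 to 726 CPM in NT, is part of that sum, and without it the groups overlap. In rPS replicate 2 the list held 4475 CPM, 889 CPM of it Pik3cd, against 4276 and 518 CPM in NT replicate 5. The gene that fell, Prr5l, an mTORC2 partner, was at 6.31 to 33.7 CPM in the 3 NT libraries kept and at 64.7 to 80.5 CPM in the 4 others, against 1.81 to 11.0 CPM in rPS.

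For the FKBP and translation lists the share of all genes that rose was again 2.63%. Of 11 FKBP genes, with a median of 0.15 in either fit, 2 rose, Fkbp5 and Fkbp4, cochaperones of steroid receptors, by 0.68 and 0.51. Maf1, the repressor of RNA polymerase III that mTORC1 holds in check, was the 1 riser among 23 genes for mTORC1's targets in translation (0.52 ± 0.14, edgeR, adjusted p = 0.0469). With the 3 NT libraries kept, Pik3cd was the 1 gene of these 3 lists that the pooled-spread fit called (adjusted p = 0.0299).

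Ribosome biogenesis genes rose in part. Of 34 genes 7 rose and none fell, against 2.63% of all genes, with a median of 0.34, and 0.20 with 3 NT libraries, where the pooled-spread fit called 3 and where it was 0.10 without NT replicate 5. Nop56, a core protein of ribosomal RNA modification, stood at 163, 139, 178, 220 and 167 CPM in rPS, against 77.5, 97.9 and 135 CPM as the lowest, median and highest values in NT. All rPS libraries lay above all NT libraries, with a log2 fold change of 0.74 ± 0.14 (edgeR, adjusted p = 0.0214). Polr1b, a subunit of RNA polymerase I, at 71.3 ± 7.86 CPM in rPS and 43.6 ± 6.47 CPM in NT, and Rrp12 and Bysl, factors of small subunit assembly, also rose without overlap.

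Of 77 genes of ribosomal proteins, 0 were called by edgeR in the fit on 12 libraries, where 0 had an unadjusted p under 0.05 and the median was -0.11. DESeq2 called 0 and limma voom 15 higher. By contrast, with 3 NT libraries the median was -0.67, 22 were lower at an unadjusted p under 0.05, and the pooled-spread fit called 15 lower. Summed, they took 29200 to 48220 CPM in rPS, against 66950 and 70660 CPM in NT replicates 2 and 6 and 20680 to 26540 CPM in the other 5 NT libraries. For the biogenesis list edgeR called 3 genes without NT replicate 4, 2 without rPS replicate 4, 1 without NT replicate 3 or 7, and 0 without NT replicate 8, rPS replicate 5 or rPS replicate 7, with 15 at an unadjusted p under 0.05 without the last. With the monocyte and macrophage covariate it called 0, with a median of 0.26.

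Counts in the metabolic lists are read against the 2.63% of all genes that rose and the 4.55% that fell. Of 32 genes of cholesterol and fatty acid synthesis 1 rose and 2 fell (median -0.18, and -0.09 with 3 NT libraries), among them Nsdhl, an enzyme of sterol synthesis, by 1.19. Of 30 genes for amino acids and one-carbon metabolism (median -0.06, and -0.07 with 3 NT libraries), Mthfd1l, a mitochondrial folate enzyme, rose by 0.75 above all NT libraries, and Asns, asparagine synthetase, fell. Of 39 nuclear genes of oxidative phosphorylation 2 fell, among them Atp5c1, a subunit of ATP synthase (-0.98 ± 0.22), and the median was -0.45. With 3 NT libraries the median was -0.59 and the pooled-spread fit called 7 of the 39 lower, against 2.38% of all genes. Transcripts of the mitochondrial genome had a median of -1.73 and 2 of 13 called lower. With 3 NT libraries the median was -1.42, all 13 were negative and the pooled-spread fit called 0, by edgeR, with 8 at an unadjusted p under 0.05 in the plain fit, but their summed level varied from 1709 to 16300 CPM among the rPS libraries.

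Levels in the other formulations are given for some of these genes. Syt6 averaged 35.7 ± 22 CPM in rPS, 1.24 ± 0.594 CPM in PS, 14.9 ± 8.88 CPM in R and 2.49 ± 1.07 CPM in RO, beside 1 ± 1.22 CPM in NT (SD, n = 5, 4, 6, 5 and 7). Pclaf averaged 3.01 ± 0.89 CPM in rPS, 14.6 ± 1.87 CPM in PS, 4.98 ± 1.26 CPM in R and 10.8 ± 2.13 CPM in RO, beside 21.6 ± 4.95 CPM in NT. Some genes that rose against NT lay nearer to PS. Nkd2 averaged 13.7 CPM in rPS and 10.9 CPM in PS, and Hcn3 10.5 and 8.62 CPM. In a fit on 27 libraries, without RO replicate 7, rPS was compared with each formulation directly. NT does not enter the difference itself, but its 7 libraries help set the spread and so the calls. R replicate 3 and RO replicate 3, with Cd3e at 9.58 and 46.9 CPM, were kept in this fit. By edgeR 14 of 17101 genes differed between rPS and PS (0.0819%), of which 12 were lower in rPS (0.0702%) and 2 higher (0.0117%). Between rPS and R 2 differed (0.0117%), 1 in each direction (0.00585% each), and between rPS and RO 3, all lower in rPS (0.0175%).

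Pclaf was lower in rPS than in PS (-2.21 ± 0.25, edgeR, adjusted p = 5.58e-05) and than in RO by 1.83, while against R its difference of -0.76 did not pass (adjusted p = 0.276). Syt6 was higher in rPS than in PS (4.92, adjusted p = 0.0342), and its differences from R and RO, 1.25 and 3.8, did not pass. Hist1h2bk was lower in rPS than in PS and R, by 2.58 and 2.89. Arc was higher in rPS than in R by 3.28, again with rPS replicates 1 and 2 low. Top2a, Oas3, Gzmb and Bcl2 passed in none of these 3 contrasts, which does not mean equal levels. Top2a was at 11.7 to 33.5 CPM in rPS. In PS, R and RO it was at 50.8 to 72.4, 21.4 to 55.4 and 51.5 to 64.7 CPM. Its difference from PS was -1.47 ± 0.33 (edgeR, adjusted p = 0.0941). Bcl2 was at 530 to 1203 CPM in rPS, and at 340 to 422, 188 to 718 and 195 to 488 CPM in PS, R and RO. Oas3 and Gzmb also lay apart from PS, while Oas3 overlapped R and Gzmb overlapped RO. The counts rested on single libraries, and ran from 1 to 23 against PS, 0 to 54 against R and 1 to 22 against RO when 1 library of either group was left out.

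**Figure D5:**
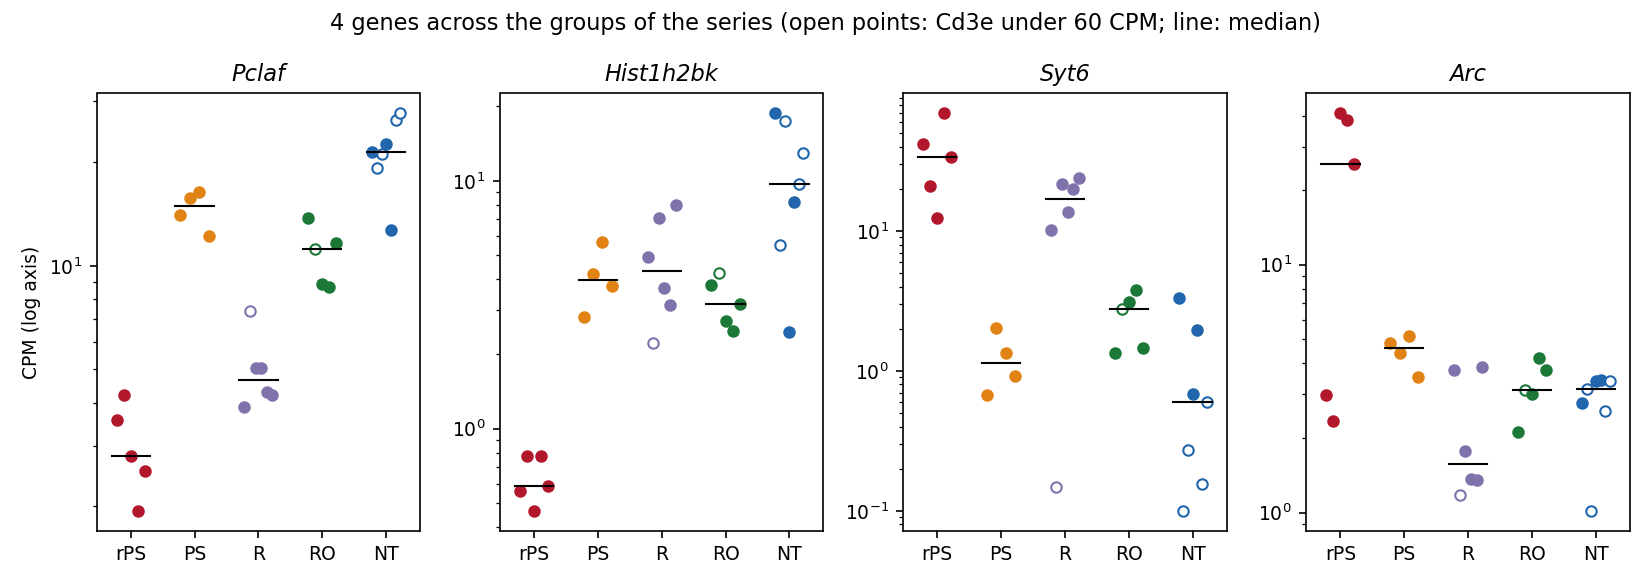
Level of 4 genes in the libraries of each group, in CPM on a log axis, with medians as bars, RO replicate 7 left out, open points for libraries with Cd3e under 60 CPM and values under 0.1 CPM drawn at 0.1. Pclaf is at most 4.22 CPM in the rPS libraries, and Syt6 is highest in rPS and R.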

How the data were processed

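RNA from CD3-positive spleen cells was sequenced, 1 library per mouse. The authors deposited 1 table of expected counts per library, and 22.0% to 23.9% of the values above 0 are not whole. The submitters' processing notes name Trimmomatic 0.39, STAR 2.7.5a, Cufflinks 2.1.1, Cuffdiff and the build GRCm39. For the tool that made the expected counts, the annotation and the strandedness, nothing was given in the sources used here. Counts were rounded to whole numbers. Gene names, chromosomes and types came from an annotation on GRCm38, which matched 52082 of 55413 IDs (93.99%), and no coordinates of the files' build are printed.

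Groups came from the labels. Malat1 and mt-Rnr2 were removed, being listed at 0 in all NT libraries. The test was edgeR's quasi-likelihood test (edgeR 4.0.16, R 4.3.3, robust, TMM scaling, filterByExpr) on the rPS and NT libraries alone, with Benjamini-Hochberg adjustment over all genes tested and a call at an adjusted p under 0.05, and again without the NT libraries whose Cd3e is under 60 CPM. CPM is a count over the file's total, fold changes are rPS over NT, and ± on a log2 fold change is its standard error. Alternatives were DESeq2 1.42.0, limma 3.58.1 voom, other scalings, no filter, fits on all groups, a monocyte and macrophage covariate, a replicate block, and each library left out. The contrasts of rPS with PS, R and RO had DESeq2, the block and left-out libraries as alternatives chosen after seeing the data. The mice have separate labels, and p-values measure the spread between these libraries.

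Genes were to be named as the 12 largest called changes in each direction with at least 5 CPM that both fits called, plus the 4 smallest p-values of each list and a few fixed genes. As the fit on 8 libraries called 0 genes, the pooled-spread fit took its place, a choice made after values were seen. The members and lists were chosen with earlier results of these data known. On simulated counts with 200 genes changed 2-fold or 4-fold, the fit on 12 libraries called 14% and 73% of them, with 5 false calls among 15416 genes. The fit on 8 libraries called 13% and 48%, with 3 false calls among 15549 genes. The simulated counts did not hold the split between T-cell-poor and other NT libraries, nor other shifts shared by many genes of a library. The simulation therefore does not show how many calls are false in the real data. The limit of 3 counts covers counting error only. No 2 libraries were duplicates, since the lowest chi-square per gene between any pair was 7.95. A few genes that met the naming rule are not reported here.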

Additional observations from a re-analysis of the deposited data

Results flagged for a closer look

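In 2 of 50 groups examined, 1 library stood apart from the others, about the 1 in 20 that chance gives. Ighg2c was highest in rPS replicate 1 at 12.5 CPM, and Arc was lowest in NT replicate 4 at 1.02 CPM.

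Differences between rPS and another formulation passed edgeR's test of the difference itself for the following genes, as log2 fold changes of rPS over that formulation. Against PS, Pclaf was at -2.21, Mybl1 at -2.28 and Nuggc at -3.57. The mitosis and replication genes Cep55, Cenpk, Cenpi and Tcf19 were at -2.25, -3.02, -1.90 and -1.25. Syt6 was at 4.92, the unnamed transcript Gm43066 at 5.97, Hist1h2bk at -2.58 and Ighv2-6 at -1.92. Col5a3 was at -6.38 against PS and -6.57 against RO, and H1fx at -4.91 against PS. Both are at or near 0 in rPS, so these fitted values depend on the prior count and are not bounds. Against R, Arc was at 3.28 and Hist1h2bk at -2.89. Against RO, Pclaf was at -1.83 and Igkv12-46 at -2.84. Genes not named in the report were named here after their values were seen.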

How the results depend on the processing

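With 12 libraries edgeR called 1123 genes. The count was 600 with no filter on low counts, 3018 by DESeq2, 5151 by limma voom, 1977 with all 28 libraries in 1 fit, 3716 with all groups but RO replicate 7, and 27 with the monocyte and macrophage covariate. Leaving out 1 library gave 1 to 2188 calls. With 3 NT libraries the count of 0 became 4 with no filter, 104 by DESeq2, 1991 by limma voom, 557 with the spread of all groups and 2 with Malat1 and mt-Rnr2 kept, and 0 to 13 with 1 library left out, 13 without NT replicate 5. Against PS, R and RO, DESeq2 called 46, 75 and 64 genes, and leaving out 1 library gave 1 to 23, 0 to 54 and 1 to 22. Without rPS replicate 2 the last 2 reached 54 and 22, and without rPS replicate 4 the first reached 23. No pairing of the mice by replicate number was seen: same-numbered libraries had correlations of -0.053, 0.165, 0.072 and 0.052, and none matched its own number best. A link weaker than the split between T-cell-poor and other NT libraries could escape this check. With a replicate block edgeR called 1 gene on 12 libraries, 0 on 8, and 1, 0 and 1 against PS, R and RO, and the block turned the 8-library log2 fold changes of Cd3e, Cd4 and Foxp3 to 0.68, 0.35 and 0.21. With the covariate, the 12-library values of Cd3e, Cd4, Foxp3 and Fkbp1a turned to -0.060, -0.45, -0.46 and -0.0013, and the 8-library value of Fkbp1a to -0.035. Without a filter the 8-library values of Fkbp1a and Cd8a turned to -0.026 and -0.014, and by limma voom those of Fkbp1a, Cd8a and Prr5l to -0.21, -0.45 and 0.13. Over the left-out libraries the 8-library values ran from -0.19 to 0.17 for Fkbp1a, -0.36 to 0.33 for Cd8a, -1.22 to 0.24 for Prr5l and -2.76 to 0.0031 for S100a9, the negative end of the first 2 and the positive end of the last 2 being without NT replicate 5. None of these genes is called in the fit its value comes from. The causes were not tested. Counts of 3 or fewer, worth up to 0.700 CPM, limit the low values.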
